A study of Mus musculus with 16 samples.

Results

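The brush border hydrolases are the enzymes that sit on the microvilli of absorptive enterocytes and finish the digestion of sugars, peptides and phosphate esters at the cell surface. The 9 genes described here were taken by name from the 3 gene count tables of the study: the disaccharidases Sis, Mgam, Lct and Treh, the peptidases Anpep, Enpep, Mme and Dpp4, and the alkaline phosphatase Alpi. All 9 were found in every table, among 52525 genes that the 3 tables share, and all 9 passed the filter on low counts in every experiment. The RNA-seq libraries came from small intestine of C57BL/6 mice with and without Cul4b, the X-linked gene for a scaffold of CUL4B-RING ubiquitin ligases.

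There were 3 experiments and 16 libraries. Crypts were isolated from 4 wildtype (WT) and 4 KOIEC mice after the villi had been scraped off. Both genotypes carried a floxed allele (Cul4b fn/Y), and the KOIEC mice also carried pVillin-Cre, whose promoter is active in the intestinal epithelium, so that other cells of a crypt preparation keep the gene. Organoids, epithelial cultures grown in Matrigel from crypts, were sequenced as 2 WT and 2 KOIEC libraries. Organoids of a further line, CAG-CreERT2; Cul4b fn/Y, gave 2 KOCAG libraries after tamoxifen treatment, beside 2 WT libraries. The CAG promoter is active in nearly all cells. The sources used here do not state whether those WT cultures carried CreERT2 or received tamoxifen, nor which culture medium was used, nor how many mice the organoids came from, so that p-values for organoids measure only the spread between these cultures. The methods give an age of 8 to 16 weeks for most of the mice used in the study, without naming those that were sequenced. Cul4b itself was at 31.7 to 38.3 CPM (counts scaled to a common library size) in WT crypts against 0.848 to 2.21 in KOIEC crypts, at 73.2 to 83.2 against 1.69 to 1.76 in KOIEC organoids, and at 70.1 to 72.9 against 3.34 to 5.19 in KOCAG organoids. Library totals ran from 7348191 to 16881395 counts.

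Enterocytes are born from stem cells at the crypt base, leave the crypt and gain their digestive enzymes as they mature along the villus, so transcripts of these enzymes are textbook markers of the absorptive lineage. Each enzyme is anchored in the apical membrane and acts on the last steps of digestion, and its products are taken up by transporters of the same membrane. Lactase and trehalase act on single disaccharides, whereas sucrase-isomaltase and maltase-glucoamylase share the work on starch products and sucrose.

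In KOCAG organoids, 8 of the 9 hydrolases rose. All 9 had a log2 fold change above 0, as 50.1% of the genes tested did. The fold changes of the 8 ran from 1.33 for Mgam to 4.16 for Enpep, at adjusted p-values between 1.04e-05 and 0.0145 (edgeR quasi-likelihood test), and the sucrase-isomaltase gene Sis, at 1.18-fold, did not pass (adjusted p = 0.0845). With all 16 libraries in 1 fit, 1 of the 9, Enpep, passed in these organoids (edgeR adjusted p = 0.0235), and the genes called over the whole table went from 4278 of 13598 to 477 of 15585. Of all genes tested in these organoids, 18.1% rose at an adjusted p under 0.05. In KOIEC crypts, all 9 genes had a log2 fold change above 0, between 0.90 and 2.26, but only Mgam passed the test (edgeR adjusted p = 0.0483). The other 8 had adjusted p-values from 0.0547 to 0.145, where 4.3% of all genes tested rose and 48.9% had a log2 fold change above 0. In KOIEC organoids, none of the 9 passed (edgeR adjusted p between 0.856 and 0.973), and 5 of the 9 had a log2 fold change above 0, beside 48.8% of all genes. Cul4b was the only gene that passed in those organoids, 0.00717% of the genes tested, while 650 genes had an unadjusted p under 0.05 and DESeq2 called none of the hydrolases either. A gene that did not pass in KOIEC organoids was not shown to be unchanged. The median log2 fold change of the 9 hydrolases was 1.58 in crypts, 0.06 in KOIEC organoids and 1.34 in KOCAG organoids, where the medians of all genes tested were -0.01, -0.01 and 0.00. In bulk RNA, fewer or more cells of a type and less or more RNA per cell cannot be told apart.

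**Figure D1:**
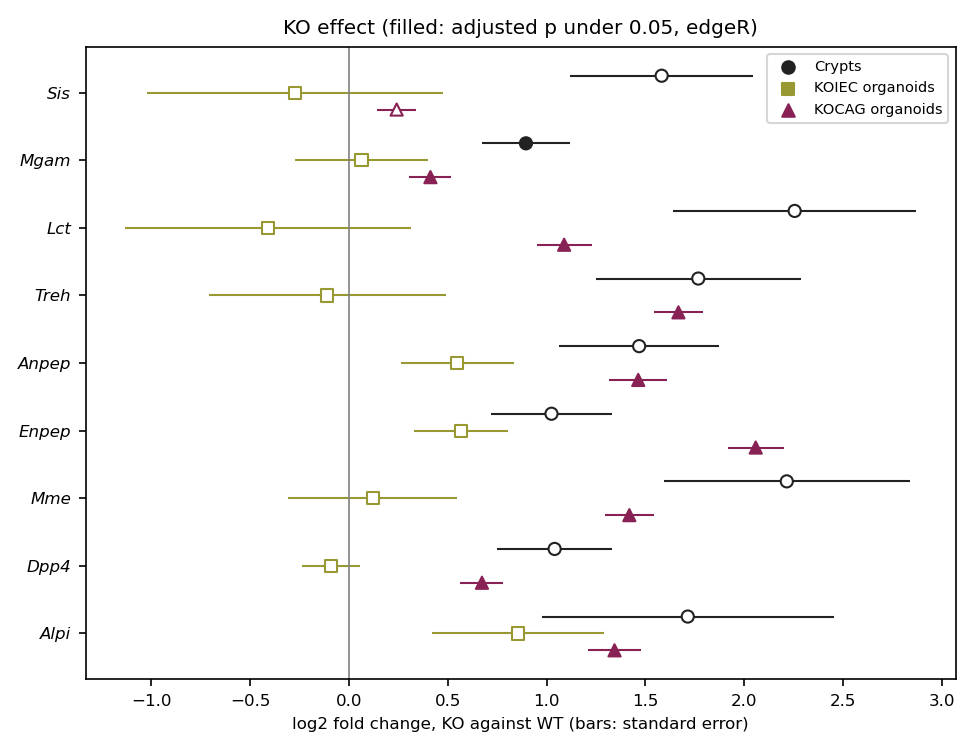
Log2 fold change of KO against WT (x axis) for each hydrolase (y axis) in crypts (circles), KOIEC organoids (squares) and KOCAG organoids (triangles). Bars are standard errors and filled symbols passed an adjusted p under 0.05 (edgeR), which holds for 1 of 9 genes in crypts, 0 of 9 in KOIEC organoids and 8 of 9 in KOCAG organoids.

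The crypt result depended on which libraries and which test were used. Members passing the test numbered 8 by DESeq2's Wald test, which left out Alpi only, and 8 when WT replicate 4 or KO replicate 1 was left out. These 3 fits also called more genes over the whole table, 2490 of 13427, 1864 of 13687 and 2468 of 13745, against 934 of 13427 in the fit reported above. They numbered 0 when any of the other 6 crypt libraries was left out, and 5 of those 6 fits called 2 to 20 genes in all, while the fit without KO replicate 4 called 513 of 13662. The crypt libraries also differed in mitochondrial ribosomal RNA, which was at 18.9 to 25.2 CPM in WT replicate 1 and KO replicates 1 to 3, at 834 and 1078 CPM in WT replicate 4 and KO replicate 4, and at 2840 and 2873 CPM in WT replicates 2 and 3. No gene of the 9 passed once this class of library was a term of the fit (edgeR adjusted p between 0.19 and 0.595), although all 9 kept a log2 fold change above 0, between 0.63 and 1.93. Only 2 of 13427 genes passed in that fit. Without WT replicates 2 and 3, an alternative chosen after the data were seen, the log2 fold changes ran from 0.60 to 1.62 and none passed (edgeR adjusted p from 0.391), where 1 of 13984 genes did. Within the low class, where 1 WT library stood against 3 KO libraries, the log2 fold changes were 0.75 to 2.29, and between the 2 libraries of the middle class they were 0.07 to 1.13.

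Levels of different genes were compared per length, as CPM divided by the gene length in kilobases (RPKM). The order depends on the listed lengths. By mean CPM in WT crypts, Mgam at 1167 stood above Anpep at 1090, and Treh at 55.5 stood below Mme at 87.8. In WT crypts the aminopeptidase N gene Anpep was highest, at 264 ± 154 RPKM (SD, n = 4), followed by Mgam at 134 ± 41.1, Sis at 117 ± 80.8, Alpi at 86.3 ± 54.8 and Enpep at 74.9 ± 37.4. Lct at 34.8 ± 25.2, Dpp4 at 33.7 ± 12.4, Treh at 27.1 ± 17.1 and the neprilysin gene Mme at 7.61 ± 6.43 RPKM followed. Every neighbouring pair in this order overlapped in range over the 4 libraries. The organoids had another order. In WT cultures of the KOIEC experiment Sis had the highest mean, at 440 ± 234 RPKM (SD, n = 2), and Alpi followed at 362 ± 2.51. The ranges of Sis and Alpi overlapped, with Sis above Alpi in 1 of the 2 cultures. Mgam and Anpep came after a gap, at 66.8 ± 19.8 and 62.0 ± 17.8. Lct was last there, at 6.34 ± 4.35 RPKM, and also last in WT cultures of the KOCAG experiment, at 7.94 ± 0.652. In the latter, Sis was again first, at 219 ± 9.71 RPKM, above Anpep at 134 ± 7.59, Mgam at 131 ± 1.01 and Alpi at 118 ± 25.4, and the last 3 overlapped. The KO groups kept Anpep first in crypts, at 730 ± 137 RPKM, the only pair of neighbours there whose ranges did not overlap being Anpep and Sis. In KOCAG organoids Anpep at 369 ± 89.2 RPKM and Alpi at 299 ± 6.81 stood above Sis at 259 ± 21.1. The 3 tables were scaled separately, so that levels set side by side across experiments are descriptions.

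**Figure D2:**
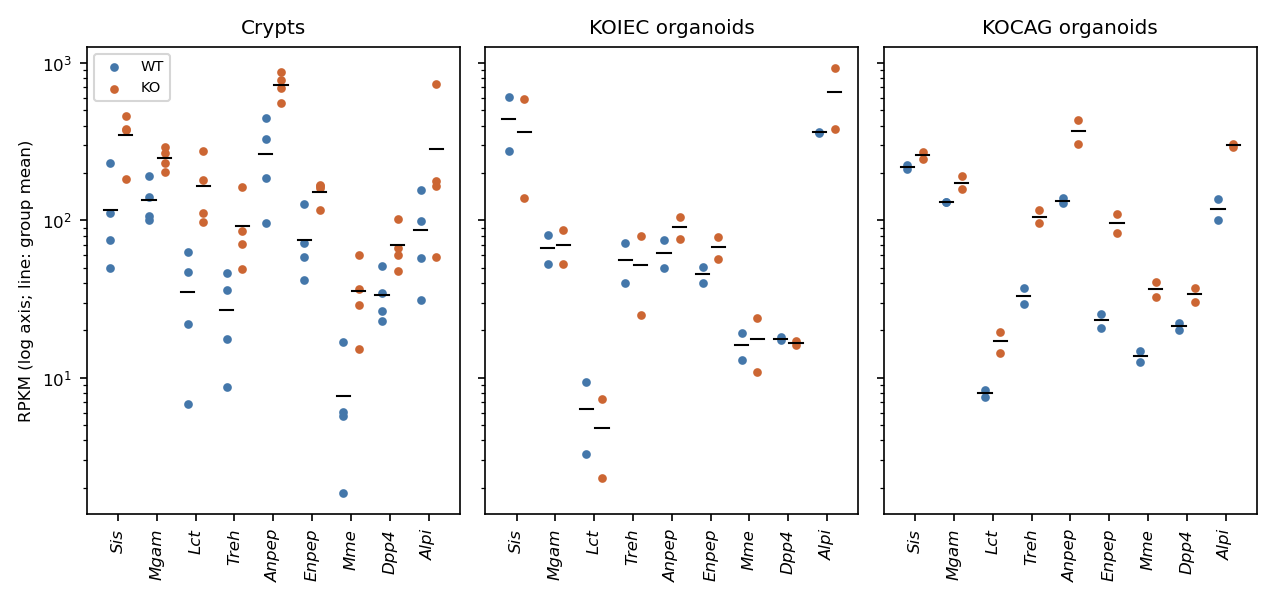
Level per length (RPKM, log axis) of each hydrolase in WT (blue) and KO (orange) libraries of the 3 experiments; points are libraries and lines are group means. In WT crypts Anpep has the highest mean, 264 RPKM, and Mme the lowest, 7.61 RPKM. In both sets of WT organoids Sis has the highest mean and Lct the lowest. In the KOIEC experiment Sis lies above Alpi in 1 of 2 WT cultures.

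Sucrase-isomaltase (Sis, ENSMUSG00000027790, chr3:72888557-72967863, minus strand, GRCm38) splits sucrose and the branch points of starch fragments. Sis was at 830, 558, 371 and 1731 CPM in the 4 WT crypt libraries and at 1373, 2802, 2829 and 3449 CPM in the KOIEC crypts. WT replicate 4 lay above KO replicate 1, so the groups overlapped, and the other 3 KO libraries lay above every WT library. The log2 fold change was 1.58 ± 0.46 (SE, n = 4 and 4, edgeR adjusted p = 0.0625, unadjusted exact two-sided permutation p = 0.0571). The smallest permutation p possible with 4 against 4 is 0.0286, which any gene whose groups do not overlap reaches. In KOIEC organoids Sis was at 2055 and 4519 CPM in the WT and at 1041 and 4400 CPM in the KO cultures, a spread of more than 2-fold within each genotype. In KOCAG organoids Sis was at 1582 and 1684 CPM in WT against 2043 and 1819 CPM in KO, a log2 fold change of 0.24 ± 0.10 (SE, n = 2 and 2; edgeR adjusted p = 0.0845). The KO cultures were both above the WT cultures, and with 1 library left out the log2 fold change ranged from 0.14 to 0.32.

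Maltase-glucoamylase (Mgam, ENSMUSG00000068587, chr6:40628831-40769123, plus strand) releases glucose from the ends of starch chains. Mgam was at 1217, 929, 870 and 1654 CPM in WT crypts and at 1775, 2561, 2343 and 2009 CPM in KOIEC crypts. All 4 KO libraries were above all 4 WT libraries, as for 8.7% of the genes tested. Its rise of 0.90 ± 0.22 on the log2 scale passed in crypts (SE, n = 4 and 4; edgeR adjusted p = 0.0483), and the call was lost with library size as the only scaling (0.0509) and in 6 of the 8 fits that left out a library. In KOIEC organoids Mgam was at 459 and 703 CPM in WT and at 461 and 755 CPM in KO, which overlapped. In KOCAG organoids Mgam rose from 1131 and 1144 CPM to 1654 and 1375 CPM, a log2 fold change of 0.41 ± 0.11 (edgeR adjusted p = 0.0145). Without WT replicate 1 or 2 of these organoids it no longer passed (edgeR adjusted p = 0.059 and 0.0687).

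Lactase (Lct, ENSMUSG00000026354, chr1:128284756-128328318, minus strand) cleaves milk sugar and had the largest crypt fold change of the 9. Lct was at 302, 141, 43.3 and 405 CPM in WT crypts and at 622, 1161, 1760 and 711 CPM in KOIEC crypts. Every KO library was above every WT library, and WT replicate 3 stood lowest of the 8. The log2 fold change was 2.26 ± 0.61 (SE, n = 4 and 4, edgeR adjusted p = 0.0547, unadjusted exact permutation p = 0.0286). Organoids held little Lct, at 21.0 and 60.3 CPM in WT and 14.6 and 46.6 CPM in KO of the KOIEC experiment, where the genotypes overlapped. In KOCAG organoids Lct rose from 53.9 and 47.9 CPM to 126 and 92.1 CPM, a log2 fold change of 1.09 ± 0.14 (edgeR adjusted p = 0.000362).

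Trehalase (Treh, ENSMUSG00000032098, chr9:44673233-44686305, plus strand) cleaves trehalose, a sugar of fungi and insects. Treh was at 74.3, 35.8, 17.8 and 94.1 CPM in WT crypts and at 101, 146, 334 and 176 CPM in KOIEC crypts. The groups did not overlap, although WT replicate 4 and KO replicate 1 were close, and KO replicate 3 stood above the rest. The log2 fold change was 1.77 ± 0.52 (SE, n = 4 and 4, edgeR adjusted p = 0.0628, unadjusted exact permutation p = 0.0286). In KOIEC organoids Treh was at 82.0 and 148 CPM in WT and at 51.0 and 162 CPM in KO, so that the KO cultures lay on either side of the WT cultures. In KOCAG organoids Treh rose from 60.5 and 75.8 CPM to 237 and 197 CPM, a log2 fold change of 1.67 ± 0.12 (edgeR adjusted p = 1.68e-05).

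Aminopeptidase N (Anpep, ENSMUSG00000039062, chr7:79821803-79861059, minus strand) removes neutral residues from the amino end of peptides. Anpep was at 1356, 770, 399 and 1838 CPM in WT crypts and at 2306, 3641, 3240 and 2882 CPM in KOIEC crypts. All KO libraries were above all WT libraries, and the log2 fold change was 1.47 ± 0.41 (SE, n = 4 and 4, edgeR adjusted p = 0.0565, unadjusted exact permutation p = 0.0286). In KOIEC organoids Anpep was at 204 and 308 CPM in WT against 313 and 436 CPM in KO. The KO cultures were higher by a narrow margin, as for 19.4% of all genes tested there, and the log2 fold change of 0.55 ± 0.29 did not pass (edgeR adjusted p = 0.856). In KOCAG organoids Anpep rose from 575 and 530 CPM to 1786 and 1264 CPM, a log2 fold change of 1.46 ± 0.15 (edgeR adjusted p = 8.5e-05).

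Glutamyl aminopeptidase (Enpep, ENSMUSG00000028024, chr3:129269175-129332720, minus strand) removes acidic residues from peptides, angiotensin II among them. Enpep was at 335, 276, 196 and 602 CPM in WT crypts and at 546, 773, 758 and 792 CPM in KOIEC crypts. WT replicate 4 exceeded KO replicate 1 and the other KO libraries stood above all WT libraries, with a log2 fold change of 1.02 ± 0.31 (SE, n = 4 and 4; edgeR adjusted p = 0.0649; exact permutation p = 0.0571). In KOIEC organoids Enpep was at 189 and 239 CPM in WT and at 266 and 367 CPM in KO. The 2 genotypes did not overlap and the log2 fold change was 0.57 ± 0.24 (edgeR adjusted p = 0.856), while without KO replicate 1 it was 0.78. In KOCAG organoids Enpep rose from 97.3 and 120 CPM to 514 and 392 CPM, the largest rise among the 9 there, with a log2 fold change of 2.06 ± 0.14 (edgeR adjusted p = 1.04e-05).

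Neprilysin (Mme, ENSMUSG00000027820, chr3:63241537-63386030, plus strand) is a metallopeptidase that cuts small signalling peptides. Mme was at 70.1, 65.6, 21.4 and 194 CPM in WT crypts and at 175, 336, 695 and 425 CPM in KOIEC crypts. WT replicate 4 lay above KO replicate 1, and the log2 fold change was 2.22 ± 0.62 (SE, n = 4 and 4; edgeR adjusted p = 0.0578; exact permutation p = 0.0571). In KOIEC organoids Mme was at 150 and 222 CPM in WT and at 126 and 278 CPM in KO, which overlapped. In KOCAG organoids Mme rose from 144 and 172 CPM to 469 and 377 CPM, a log2 fold change of 1.42 ± 0.12 (edgeR adjusted p = 4.1e-05).

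Dipeptidyl peptidase 4 (Dpp4, ENSMUSG00000035000, chr2:62330073-62412231, minus strand) removes dipeptides and inactivates incretin hormones, and is also carried by T cells as CD26. Dpp4 was at 217, 169, 144 and 322 CPM in WT crypts and at 303, 424, 378 and 648 CPM in KOIEC crypts. The groups overlapped through WT replicate 4 and KO replicate 1, and the log2 fold change was 1.04 ± 0.29 (SE, n = 4 and 4; edgeR adjusted p = 0.0578; exact permutation p = 0.0571). Dpp4 was the steadiest of the 9 in KOIEC organoids, at 109 and 114 CPM in WT and 102 and 108 CPM in KO, with a log2 fold change of -0.09 ± 0.15 (edgeR adjusted p = 0.898). In KOCAG organoids Dpp4 rose from 127 and 140 CPM to 236 and 192 CPM, a log2 fold change of 0.67 ± 0.11 (edgeR adjusted p = 0.00129). An antisense gene, Gm13561, overlaps exons of Dpp4, and because strand use in the counting is not stated in the sources used here, the reads of the pair cannot be told apart there.

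Intestinal alkaline phosphatase (Alpi, ENSMUSG00000079440, chr1:87098002-87101606, minus strand) removes phosphate groups from nucleotides and bacterial lipopolysaccharide. Alpi was at 231, 135, 72.8 and 367 CPM in WT crypts and at 136, 416, 1711 and 384 CPM in KOIEC crypts. KO replicate 3 stood far above the other 7 libraries and KO replicate 1 lay below WT replicates 1 and 4, so the groups overlapped widely. The log2 fold change was 1.71 ± 0.74 (SE, n = 4 and 4; edgeR adjusted p = 0.145; exact permutation p = 0.143), and without KO replicate 3 it was 0.64. The neighbouring paralog Akp3, a phosphatase of the upper small intestine, was at 1104 CPM in KO replicate 3 and at 136 CPM in WT replicate 4, against 1.61 to 18.8 CPM in the other 6 crypt libraries. Of 2288 words of 50 bases in Alpi transcripts, 55 also occur in other genes, most of them in Akp3, so that a small part of the reads of the pair could belong to either gene. In KOIEC organoids Alpi was at 850 and 842 CPM in WT and at 894 and 2165 CPM in KO. The KO cultures were both above the WT cultures, with a log2 fold change of 0.85 ± 0.43 (edgeR adjusted p = 0.856), and without KO replicate 1 the value of 1.35 passed (edgeR adjusted p = 0.00417), in a fit that called 2322 of 14650 genes. In KOCAG organoids Alpi rose from 234 and 318 CPM to 688 and 710 CPM, a log2 fold change of 1.34 ± 0.13 (edgeR adjusted p = 7.38e-05), and Akp3 rose there from 67.9 and 86.8 CPM to 243 and 279 CPM.

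**Figure D3:**
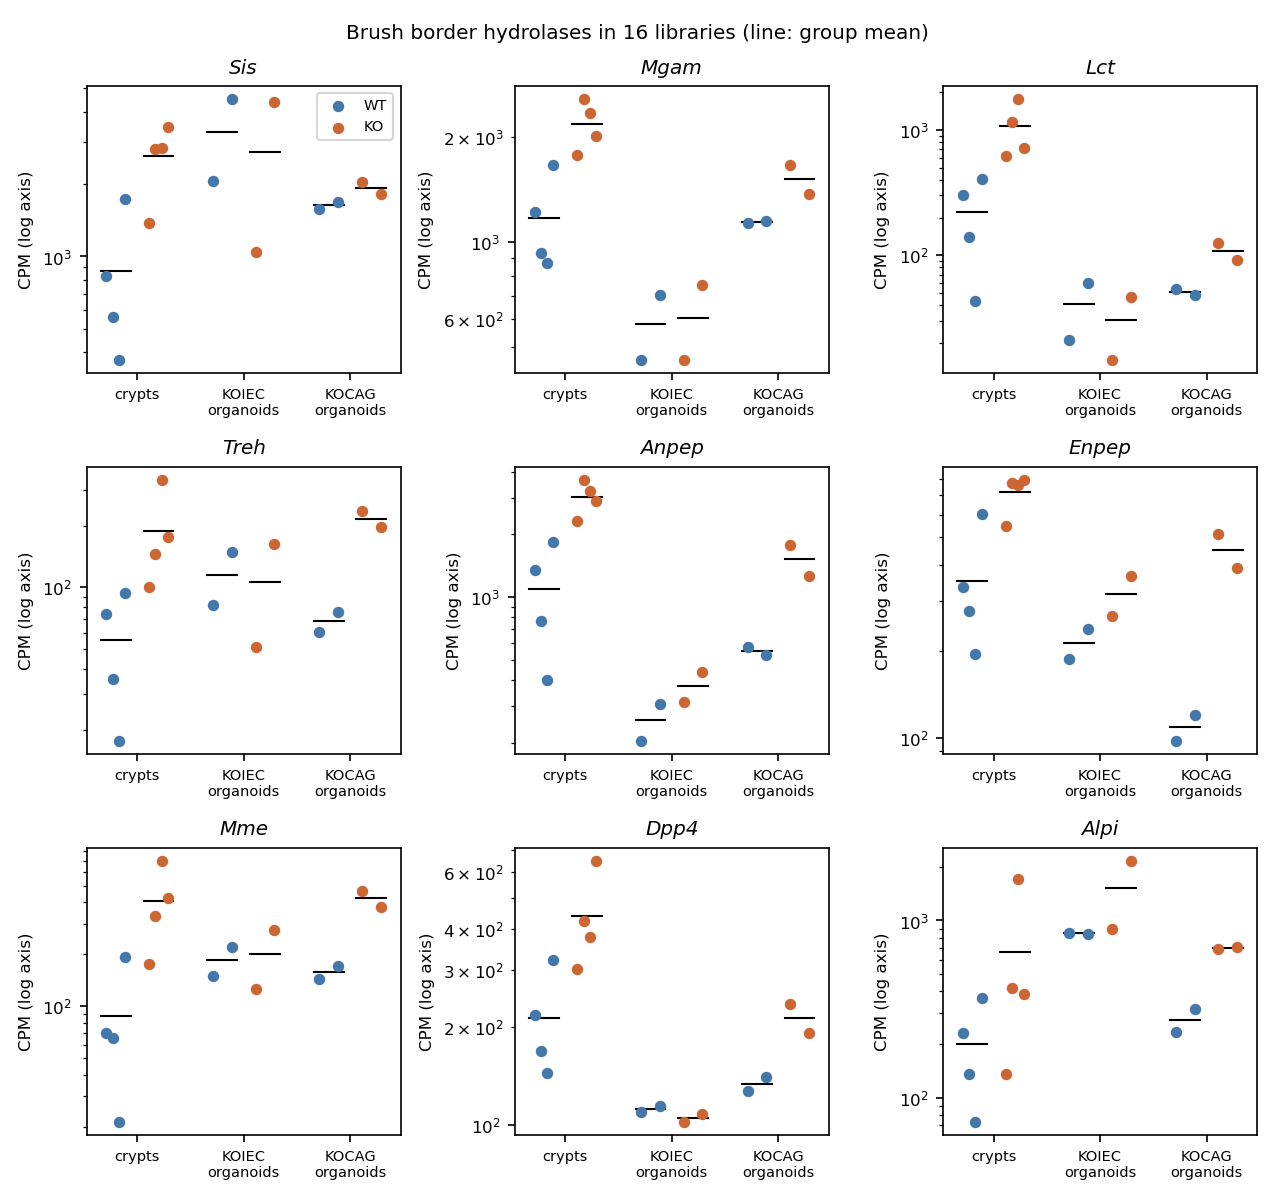
CPM of each hydrolase (log axis) in the 16 libraries, by experiment and genotype (WT blue, KO orange), with points for libraries and lines for group means. In KOCAG organoids both KO points of every gene lie above both WT points, whereas in KOIEC organoids the KO points of Sis lie at 1041 and 4400 CPM, on either side of the lower WT point.

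Counting groups that did not overlap, every KO library was above every WT library for 4 of the 9 genes in crypts (Lct, Mgam, Anpep and Treh) where 8.7% of all genes tested were, for 3 of 9 in KOIEC organoids (Alpi, Anpep and Enpep) where 19.4% were, and for all 9 in KOCAG organoids where 35.5% were. Dpp4 had both KO cultures below both WT cultures in KOIEC organoids, like 19.4% of all genes tested. Past the adjusted p and a fold change of at least 2, there were 6 of the 9 in KOCAG organoids, beside 6.36% of all genes, and 0 of 9 in crypts, beside 1.44%.

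The 9 transcripts varied together from library to library. Summed over the 9 genes, WT crypts held 4634, 3079, 2135 and 7206 CPM and KOIEC crypts 7338, 12260, 14049 and 11477 CPM, and the lowest KO library was above the highest WT library by a small margin. The sum was 0.224% to 0.721% of all counts in WT crypts and 0.745% to 1.29% in KOIEC crypts. In KOIEC organoids the sums were 4119 and 7156 CPM in WT and 3268 and 8718 CPM in KO, so that the replicates of a genotype differed by more than the genotypes did. Mitochondrial ribosomal RNA in the same libraries, in the same order, was at 1418 and 2176 CPM in WT and at 1241 and 2467 CPM in KO. Its part in these sums was not tested. In KOCAG organoids they were 4005 and 4232 CPM in WT and 7750 and 6417 CPM in KO.

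After the mean of each of the 6 groups was taken off, the 36 pairs of hydrolases had correlations of log2 CPM between 0.499 (Alpi and Dpp4) and 0.942 (Lct and Treh) over the 16 libraries, with a median of 0.849. These deviations share library, depth and preparation, and the correlations are given as a description. Pairs of other genes were not set beside them. In KOCAG organoids the mean deviation of the 9 genes was 0.07 or 0.15 in either direction, so the correlations rest mainly on the other libraries. WT replicate 4 of the crypts lay on average 1.05 above its group mean on the log2 scale over the 9 genes, WT replicate 3 lay 1.10 below it (-1.10), and KO replicate 1 of the crypts deviated by -0.73. Among 15576 genes, those whose deviations were most like the mean of the 9 hydrolases included Clic5 (r = 0.989), Sec14l2 (0.983), Phlpp2 (0.982) and Pls1 (0.981), over the same 16 libraries. Clic5 and Pls1 code for proteins of the microvillus and terminal web.

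**Figure D4:**
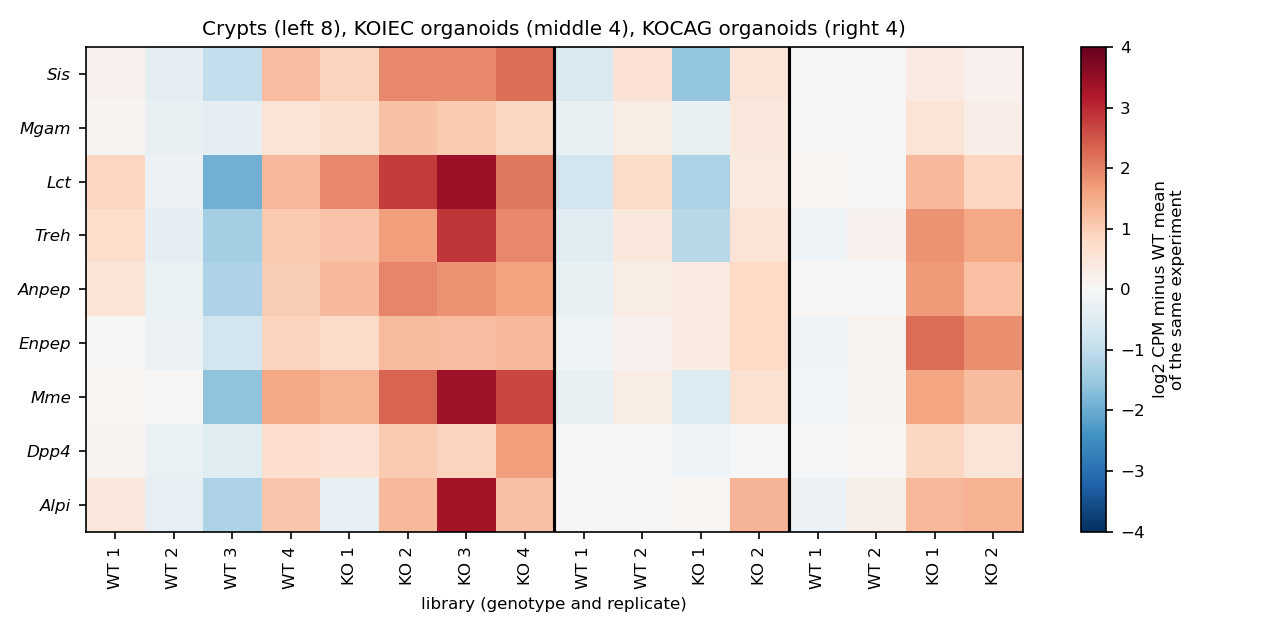
Log2 CPM of each hydrolase (rows) in each library (columns) minus the mean of the WT libraries of the same experiment; red is above and blue below that mean, and black lines part the 3 experiments. Libraries move as columns: WT replicate 4 of the crypts is red in all rows and WT replicate 3 blue, and KO replicate 1 of the KOIEC organoids is blue for Sis, Lct and Treh.

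The differences between experiments were tested as differences of KO effects in a fit over all 16 libraries. No hydrolase differed at an adjusted p under 0.05 in any of the 3 contrasts (edgeR), where the share of all genes that did was 0.00642% for crypts against KOIEC organoids, 0.372% for crypts against KOCAG organoids and 0.385% for KOCAG against KOIEC organoids. The lowest p of crypts against KOIEC organoids belonged to Dpp4, with an effect higher by 1.12 ± 0.43 on the log2 scale in crypts (unadjusted p = 0.0216, edgeR adjusted p = 0.647). Enpep had the lowest p in the other contrasts: its effect was larger in KOCAG organoids than in KOIEC organoids by 1.47 ± 0.56 (edgeR adjusted p = 0.357), and crypts minus KOCAG organoids gave -1.03 ± 0.48 (edgeR adjusted p = 0.355). Without the filter on low counts, these contrasts called 7, 3 and 4 of the 9 hydrolases, in the order given, beside 572, 674 and 599 of 33205 genes, so the calls of a difference depended on the filter.

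Other enzymes of the brush border were taken as a list of 17, of which 16 were in the tables. Beside the counts of this and the later lists, 18.1% of all genes tested rose in KOCAG organoids and 4.3% in crypts. In KOCAG organoids 12 of 14 tested rose and none fell, with a median log2 fold change of 1.84. The lowest p-values belonged to Akp3 (1.76 ± 0.12, edgeR adjusted p = 1.03e-05), the meprin subunit gene Mep1b (1.93 ± 0.14, 1.79e-05) and the gamma-glutamyl transferase gene Ggt1 (1.47 ± 0.12, 2.19e-05). In crypts 1 of 15 rose, the angiotensin-converting enzyme gene Ace at 1.93 ± 0.45 (edgeR adjusted p = 0.0456), and the median was 1.56. Ggt1 was at 1.56 ± 0.44 in crypts (edgeR adjusted p = 0.0578). In KOIEC organoids none of 11 passed and the median was 0.08, with the lowest p for Xpnpep2, Mep1b and Enpp3 at 0.86, 0.56 and 0.77 (edgeR adjusted p = 0.856 each). Of this list, Folh1 was at 0 counts in all organoid libraries.

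The structural genes of the microvillus, a list of 15 that code for actin bundlers, motors and intermicrovillar links, were set beside the enzymes. In crypts 6 of 15 rose and none fell, with a median log2 fold change of 0.76. The lowest p-values there were those of the actin-capping genes Eps8l2 (1.09 ± 0.22, edgeR adjusted p = 0.0413) and Eps8 (0.67 ± 0.15, 0.0429) and the fimbrin gene Pls1 (1.34 ± 0.30, 0.0438). In KOCAG organoids 10 of 15 rose and none fell, with a median of 0.47, led by the protocadherin genes Cdhr5 (1.57 ± 0.12, edgeR adjusted p = 2.2e-05) and Cdhr2 (1.44 ± 0.13, 4.1e-05), then Pls1 (0.73 ± 0.10, 0.000546). In KOIEC organoids none of 15 passed, the median was 0.25, and the lowest p-values were those of Myo1d, Eps8 and Eps8l3 at 0.63, -0.39 and 0.52 (edgeR adjusted p = 0.856 each).

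Transporters for the sugars, peptides and amino acids that the hydrolases release formed a list of 10. In KOCAG organoids 8 rose and 1 fell: the peptide transporter gene Slc15a1 rose by 2.30 ± 0.18 on the log2 scale (edgeR adjusted p = 2.04e-05), the neutral amino acid transporter gene Slc6a19 by 1.67 ± 0.15 (4.1e-05) and the glucose transporter gene Slc2a2 by 0.93 ± 0.09 (6.49e-05), while Slc1a1, for acidic amino acids, fell by 1.35. In crypts 1 of 10 rose, Slc3a1, a subunit of the cystine and dibasic amino acid transporter, at 1.20 ± 0.24 (edgeR adjusted p = 0.0397). The sodium-glucose transporter gene Slc5a1 was at 1.46 ± 0.39 (edgeR adjusted p = 0.0522) and Slc2a2 at 2.26 ± 0.64 (0.0578) in crypts. In KOIEC organoids none of 10 passed, and Slc6a20a, Slc7a9 and Slc6a19 had the lowest p-values at 0.77, 0.39 and 0.75 (edgeR adjusted p = 0.856 each).

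Transcription factors of enterocytes, a list of 14, did not move as a block. In KOCAG organoids Klf4 (0.60 ± 0.10, edgeR adjusted p = 0.00191) and Hnf4g (0.53 ± 0.11, 0.00444) rose, and Elf3 (-0.29, 0.0209) and Cdx2 (-0.28, 0.0311) were among those that fell. In crypts 1 of 14 rose, Hnf4g at 0.91 ± 0.20 (edgeR adjusted p = 0.0438), and Maf and Klf4 were at 1.03 ± 0.29 (0.0575) and 0.80 ± 0.28 (0.088). The medians were 0.20 in crypts, 0.26 in KOIEC organoids and -0.13 in KOCAG organoids. None of 14 passed in KOIEC organoids, where Gata4, Cdx1 and Hnf4g had the lowest p-values at 0.58, 0.38 and 0.70 (edgeR adjusted p = 0.856 each).

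Markers of enterocytes that are not hydrolases, a list of 11 with apolipoproteins and fatty acid binding proteins, were set beside the hydrolases. Their summed level was 3108 to 10989 CPM in WT crypts and 9871 to 21701 CPM in KOIEC crypts, 9647 and 16585 CPM against 6921 and 22349 CPM in KOIEC organoids, and 6855 and 7150 CPM against 17090 and 13493 CPM in KOCAG organoids. In KOCAG organoids 9 of 11 rose, in crypts 2 of 11 rose and in KOIEC organoids none passed. The 7 stem cell markers summed to 2077 to 3104 CPM in WT crypts and 1378 to 2150 CPM in KOIEC crypts, where 2 of 7 fell. In KOIEC organoids the stem cell sum was 3360 and 4749 CPM in WT and 2209 and 593 CPM in KO, the lowest value being that of KO replicate 2, in which the summed hydrolases were highest. In KOCAG organoids 3 of 7 stem cell markers fell, and the sums were 4543 and 5177 CPM in WT and 3661 and 4202 CPM in KO. Of all 13427 genes tested in crypts, 934 were called, of which 577 rose and the rest fell. Of all 13598 genes tested in KOCAG organoids, 4278 were called, of which 2455 rose and the rest fell.

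**Figure D5:**
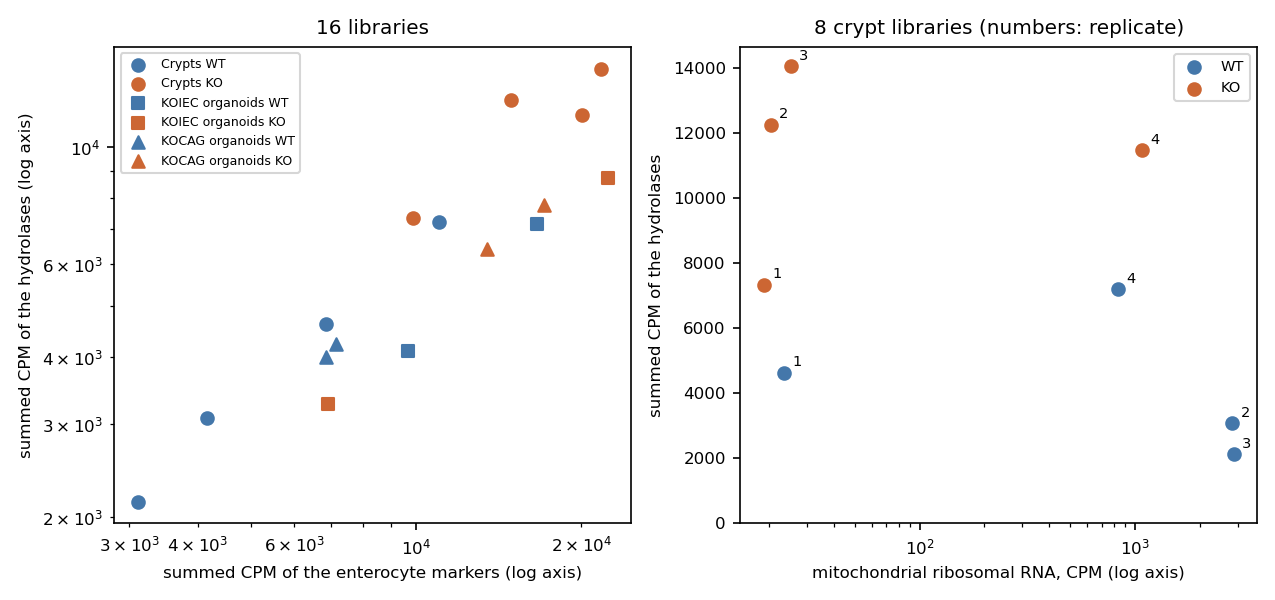
Left: summed CPM of the 9 hydrolases (y axis) against summed CPM of 11 enterocyte markers (x axis) in 16 libraries, both log axes. Right: summed CPM of the hydrolases against mitochondrial ribosomal RNA (log axis) in the 8 crypt libraries, with replicate numbers. The sums of the 2 lists rise together over libraries, and the 2 WT crypt libraries at 2840 and 2873 CPM of mitochondrial ribosomal RNA have the lowest hydrolase sums, 3079 and 2135 CPM.

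Markers of other cell types also moved in some experiments. In KOCAG organoids 7 of 7 goblet cell markers, 7 of 7 enteroendocrine markers and 5 of 6 Paneth cell markers rose, with summed levels of 5157 and 5378 CPM against 8243 and 8872 CPM for goblet, 705 and 731 CPM against 1607 and 1721 CPM for enteroendocrine, and 4927 and 5360 CPM against 8214 and 8779 CPM for Paneth cells. Of all genes tested in KOCAG organoids, 18.1% rose. In crypts and KOIEC organoids none of these 3 lists had a gene past the test. Paneth cell markers summed to 10430 to 18811 CPM in WT crypts and 2051 to 18067 CPM in KOIEC crypts, and goblet cell markers to 6053 to 8785 and 8086 to 12638 CPM. The 5 tuft cell markers summed to 26.5 to 37.5 CPM in WT crypts and 28.8 to 168 CPM in KOIEC crypts, and 1 of 4 tested rose in KOCAG organoids. The part of these cells in the hydrolase values was not tested.

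Markers of T and NK cells, a list of 8, summed to 21.7 to 114 CPM in WT crypts and 51.6 to 378 CPM in KOIEC crypts. All 8 had a log2 fold change above 0 in crypts, between 1.00 and 1.70, and none passed (edgeR adjusted p between 0.119 and 0.252). Their part in the crypt values of Dpp4 was not tested. In organoids the same list summed to 0.26 to 0.96 CPM, with Cd8a, Gzma and Gzmb at 0 counts in every library of both experiments and no gene passing the filter on low counts. Myeloid and B cell markers, a list of 8, summed to 21.4 to 33.0 CPM in WT and 14.5 to 19.7 CPM in KOIEC crypts, and stroma markers, a list of 9, to 7.40 to 11.3 and 3.18 to 7.17 CPM, with none past the test in crypts. In organoids these 2 lists summed to at most 9.87 and 4.66 CPM. Adgre1 was at 0 counts in all organoid libraries, and 1 of the 2 myeloid and B cell genes that could be tested rose in KOCAG organoids. Genes of the upper small intestine, a list of 6, summed to 375 to 797 CPM in WT crypts and 600 to 2061 CPM in KOIEC crypts, and genes of the lower small intestine, a list of 5, to 272 to 515 and 559 to 913 CPM. None of either list passed in crypts or KOIEC organoids. In KOCAG organoids 3 of 6 and 3 of 4 tested genes of these lists rose, beside 18.1% of all genes tested.

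The sequences before the start sites of these genes were compared because the 9 transcripts moved together over libraries. All 9 matched the RefSeq promoter windows of mouse (GRCm38.p6), and the 250 bases before the start were searched on both strands for 5 short motifs, which were picked after the sequences had been looked at. The letters TATAAA were in 12.4% of 32851 windows and in those of Alpi, Sis, Mgam, Dpp4 and Enpep, and TTTAT, the letters bound by CDX factors, in 37.3% of windows and in those of Alpi, Lct, Sis, Mgam, Dpp4 and Enpep. These 2 motifs overlap where TTTATA occurs. The letters AGATAA, known from GATA factors, were in 9.99% of windows and in those of Lct, Mgam and Dpp4, and GTTAAT, part of the HNF1 motif, in 6.43% and in that of Sis. CAAAGTCCA, an HNF4 motif, was in 0.384% of windows and in those of Alpi, 19 bases before the start (-19), and Treh (-71, on the other strand). Shown are the last 150 bases before the start of 5 genes, read in the direction of transcription, with the motif letters in capitals: Alpi and Treh for the HNF4 letters, Sis for the TATA and CDX letters, Lct for the CDX and GATA letters, and Anpep as the window with none of the 5. They lie at chr1:87101607-87101756 (minus strand) for Alpi, chr9:44673083-44673232 (plus) for Treh, chr3:72967864-72968013 (minus) for Sis, chr1:128328319-128328468 (minus) for Lct and chr7:79848211-79848360 (minus) for Anpep.
Alpi: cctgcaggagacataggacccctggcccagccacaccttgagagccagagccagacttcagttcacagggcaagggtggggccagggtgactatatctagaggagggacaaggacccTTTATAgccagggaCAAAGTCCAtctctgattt
Treh: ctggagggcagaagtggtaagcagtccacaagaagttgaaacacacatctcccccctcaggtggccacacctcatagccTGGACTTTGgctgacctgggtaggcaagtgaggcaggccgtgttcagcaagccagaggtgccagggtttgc
Sis: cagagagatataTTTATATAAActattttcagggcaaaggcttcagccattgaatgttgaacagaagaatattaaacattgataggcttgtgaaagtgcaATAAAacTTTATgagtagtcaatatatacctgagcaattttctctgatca
Lct: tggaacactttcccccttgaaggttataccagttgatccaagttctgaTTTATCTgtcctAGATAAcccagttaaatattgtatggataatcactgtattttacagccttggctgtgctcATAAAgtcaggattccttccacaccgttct
Anpep: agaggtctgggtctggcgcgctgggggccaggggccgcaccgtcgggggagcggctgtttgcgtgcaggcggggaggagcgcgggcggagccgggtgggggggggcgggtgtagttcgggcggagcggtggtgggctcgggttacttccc
The Anpep window had 72.8% G and C and 23 CpG dinucleotides in 250 bases, where the median of all windows was 52.4% and 6. Mme had 3 start sites in RefSeq, none with any of the 5 motifs, and the windows of 2 of them had 27 CpG dinucleotides each. The Anpep start lies inside its gene as annotated in the counts (chr7:79821803-79861059, minus strand). The 3 Mme starts likewise lie inside chr3:63241537-63386030 (plus strand). Which starts of Anpep and Mme these cells used was not tested. A match is a run of letters and does not show that a factor binds there.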

How the data were processed

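Raw read counts per gene were deposited, in 1 table for each experiment that also lists gene lengths. The libraries were made and sequenced by Novogene, and the submitters' processing notes name HISAT2 2.0.5 and featureCounts 1.5.0-p3. Strand use and genome build are not given in the sources used here, and the 9 gene positions equal those of GENCODE M21 on GRCm38. A floor of 3 counts corresponds to 0.178 to 0.408 CPM, which covers counting error only.

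Each experiment was fitted alone, KO against WT, over all genes that passed filterByExpr (13427 in crypts, 13938 in KOIEC and 13598 in KOCAG organoids), with TMM scaling and the quasi-likelihood test of edgeR 4.0.16 in R 4.3.3. A gene was called at a Benjamini-Hochberg adjusted p under 0.05, and rose or fell refers to called genes. CPM and RPKM carry the TMM scaling, except for mitochondrial ribosomal RNA and the floor. Differences of KO effects were tested in a fit over all 16 libraries with 6 group means (15585 genes). The standard error of a fold change was derived from its F statistic. Single genes in crypts were also tested by exact permutation, and those p-values were not adjusted for the number of genes. DESeq2 1.42.0 served as an alternative, with other scalings, filters, a replicate block, each library left out, and a term for mitochondrial ribosomal RNA with class bounds at 100 and 2000 CPM. The fit was tested on simulated data in which each gene varied on its own, without swings shared by the genes of a library. Of simulated 2-fold changes in either direction it called 69.4% in crypts, 1.03% in KOIEC organoids and 68.8% in KOCAG organoids. Of 4-fold changes it called 91.9%, 49.5% and 99.0%.

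All 9 hydrolases were named in every experiment. Of each related list, the 3 genes with the lowest p in each experiment, the paralog Akp3 and the 5 genes most alike in deviation from the group means (log2 CPM, prior count 2) were named. Elf3, Cdx2 and Slc1a1 were named after their values were seen. Some genes that this rule selects are not reported here. The genes and the lists were chosen with earlier results of these data known. Windows before start sites came from RefSeq, and 50-base words from GENCODE transcripts.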

Additional observations from a re-analysis of the deposited data

Results flagged for a closer look

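Among the 9 hydrolases in the 2 crypt groups of 4 libraries, Enpep in KOIEC crypts stood out by the gap between its lowest library and the rest. KO replicate 1 was at 546 CPM, against 758, 773 and 792 CPM in the other 3, a gap of 0.862 of the whole range, past Dixon's 95% limit for 4 values. Of 18 such groups this was the only 1 past the limit, and chance alone passes about 1 in 20. The next largest gap was that of Alpi in KOIEC crypts, 0.822 of the range, set by KO replicate 3 at 1711 CPM.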

How the results depend on the processing

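In crypts the number of hydrolases called, 1 as reported, was 0 with library size as the only scaling, with the replicate block, with the mitochondrial ribosomal RNA class as a term, without the high class of libraries (WT replicates 2 and 3, chosen after the data were seen) and with a fold change of at least 2 required. Over all genes, the fit with library size only called 635 of 13427 and the replicate block 4 of 13427. The number of hydrolases was 8 without the filter on low counts, beside 1479 of 30118 genes. It was also 8 by DESeq2's Wald test, beside 2490 of 13427, and 7 with all 16 libraries in 1 fit, beside 1659 of 15585. Leaving out 1 library gave 0 to 8. All 9 log2 fold changes stayed above 0 in each of these crypt fits. In KOIEC organoids the number, 0 as reported, was 1 (Alpi) without the filter on low counts, where 223 of 24322 genes were called, and 0 to 2 with 1 library left out. There the sign of Mgam turned with library size only, to -0.0020, and ranged from -0.33 to 0.39 with 1 library left out. The same ranges were -0.56 to 0.58 for Mme, -1.47 to 0.53 for Lct, -1.66 to 0.42 for Sis and -1.17 to 0.49 for Treh. In KOCAG organoids the number, 8 as reported, was 1 (Enpep) with all 16 libraries in 1 fit, beside 477 of 15585 genes. Differences of KO effects gave 0 calls, and without the filter on low counts 7 for crypts against KOIEC organoids, 3 for crypts against KOCAG organoids and 4 for KOCAG against KOIEC organoids. Of 567 values of these differences over all alternatives, 22 changed sign. The causes were not tested. In crypts the same-numbered libraries had correlations of their deviations from -0.395 to 0.434, and in KOIEC and KOCAG organoids 0.342 and 0.0669. In groups of 2 the deviations mirror each other, so the organoid values cannot tell whether same-numbered libraries were paired. The sources used here do not state whether same-numbered libraries were prepared together. The block of replicate numbers gave 0 calls in crypts, 0 in KOIEC organoids and 8 in KOCAG organoids. Over all genes it called 4 of 13427, 1 of 13938 and 4932 of 13598, in that order. With 2 libraries a group, organoid fits without a library take the lone library to vary like the others.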
